A study of Mus musculus with 4 samples.

Results

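The 10 genes described here encode proteins that switch MAP kinase signalling off. They are 7 dual-specificity phosphatase genes (Dusp1, Dusp2, Dusp4, Dusp5, Dusp6, Dusp10 and Dusp16) and 3 genes of the Sprouty and Spred families (Spry1, Spry2 and Spred1). They were chosen by gene symbol, with earlier results of these data known. All 10 were listed in each of the 4 libraries, out of 17478 genes listed in at least 1 library. RNA was sequenced from CD4+ T cells of C57BL/6 mice aged 6 to 8 weeks, which were isolated in the naive state by sorting (CD44 low, CD62L high) from lymph nodes and spleen. The cells were stimulated with antibodies to CD3 and CD28 and cultured for 3 days in Th9 conditions, which favour helper T cells that make interleukin 9. The wild-type group had 2 libraries. The Bfar knockout group also had 2 libraries, labelled BFAR-/- and described in the protocol as deficient in T cells only; the promoter that drove the deletion is not given in the sources used here. Bfar encodes a ubiquitin ligase of the endoplasmic reticulum.

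MAP kinases are activated when both a threonine and a tyrosine of their activation loop are phosphorylated. Dual-specificity phosphatases remove both phosphates, and each member prefers some of the 3 main MAP kinase families, ERK, JNK and p38, and works in the nucleus or the cytoplasm. Sprouty and Spred proteins act earlier in the cascade, near the receptor and Ras. In T cells many of these genes are themselves induced by antigen receptor and cytokine signals, so that they form negative feedback loops, and their mRNA levels are often read as traces of ERK activity.

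The libraries held 19058009 to 19782923 expected counts. Bfar, the targeted gene, was measured in CPM, which are counts corrected for sequencing depth. It stood at 36.4 and 32.9 CPM in wild type and at 8.45 and 7.79 CPM in the knockout (log2 -2.09 ± 0.09; edgeR adjusted p = 5.38e-10), and neither knockout library went against its label. Nothing in the labels says whether each replicate was a mouse of its own, and p-values here cover the spread between these libraries only, which may be technical. T cell markers were abundant. Their summed levels over 7 genes were 1918 to 1923 CPM in wild type and 2033 to 2071 CPM in the knockout. Of these 7 genes 4 rose and 1 fell (edgeR adjusted p under 0.05), where 26.8% of all tested genes passed. Summed B cell markers lay between 4.42 and 5.32 CPM, myeloid and dendritic markers between 1.11 and 2.08 CPM with Lyz2 and Csf1r at 0, and natural killer markers between 2.37 and 3.68 CPM with Ncr1 at 0. CD8 T cell markers lay between 10.003 and 11.6 CPM and erythroid markers between 0.311 and 0.684 CPM. Of the 4 mast cell markers 3 were at 0, while Kit rose from 1.51 and 1.32 to 3.58 and 3.32 CPM (edgeR adjusted p = 0.000608). Il9, the cytokine that gives Th9 cells their name, was abundant in every library but fell from 537 and 505 to 238 and 270 CPM (edgeR adjusted p = 1.89e-09). The part of any of these cells in the results was not tested. In bulk RNA a smaller share of cells that express a gene and less of its RNA per cell cannot be told apart.

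Levels per transcript length (FPKM, fragments scaled to transcript length and library size) ranked the 10 genes almost alike in both genotypes. Dusp4 was highest, with 153 and 159 FPKM in the wild-type libraries and 188 and 192 FPKM in the knockout libraries. Dusp5 followed, with 103 and 103 FPKM in wild type and 156 and 152 FPKM in the knockout. These nuclear phosphatase genes stood well above the others, which in wild type had 32.0 ± 0.325 FPKM for Dusp2 (mean ± SD, n = 2), 19.8 ± 0.354 for Spry1, 19.03 ± 0.544 for Dusp6, 14.9 ± 0.0283 for Dusp10, 8.11 ± 0.233 for Dusp1, 7.18 ± 0.0566 for Spred1, 4.98 ± 0.163 for Dusp16 and 0.505 ± 0.0354 for Spry2. Neighbours in this order did not overlap between libraries of 1 genotype, except Spry1 and Dusp6 in the knockout, at 21.7 ± 2.23 FPKM for Spry1 and 20.8 ± 1.18 FPKM for Dusp6. The order changed at 1 place: Spred1 was above Dusp16 in wild type and below it in the knockout, where their means were 6.03 ± 0.488 FPKM for Spred1 and 7.39 ± 0.424 FPKM for Dusp16. The deposited length of Dusp5, 1155 bases, equals its annotated coding sequence, whereas the other lengths are longer than the coding sequence, and a level set per length against another gene rests on that difference.

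**Figure D1:**
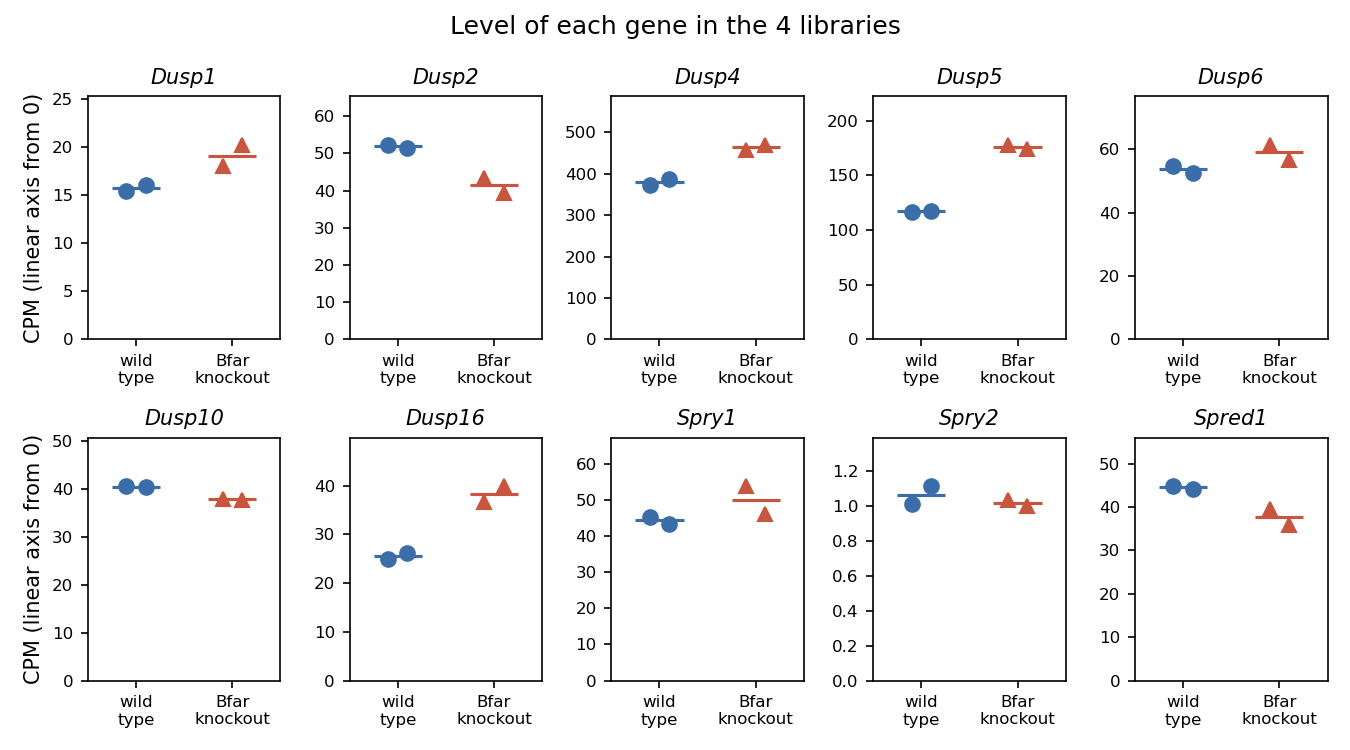
Level of each of the 10 genes in CPM on linear axes that start at 0, with 1 panel per gene; points are the 2 libraries of each genotype and bars their means. Dusp5, Dusp16 and Dusp4 lay higher in both knockout libraries and Dusp2 and Spred1 lower, while the points of Spry2 overlapped.

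The comparison of the genotypes asks whether the feedback genes of MAP kinase signalling had other mRNA levels in the Bfar knockout cells. Of the 10 genes 4 rose (Dusp5, Dusp16, Dusp4 and Dusp1), 2 fell (Dusp2 and Spred1) and 4 did not pass the test (Spry1, Dusp6, Dusp10 and Spry2), by edgeR's quasi-likelihood test with Benjamini-Hochberg adjustment over all 12677 tested genes at 0.05. Across all tested genes 26.8% passed, 13.6% upward and 13.2% downward. The median log2 fold change of the 10 genes, knockout over wild type, was 0.16, and that of all tested genes was -0.0024; the median absolute change was 0.26 against 0.14. All 10 passed the filter on low counts. Values of the knockout libraries lay wholly above or below the wild-type values for 9 of the 10 genes, and for 63.5% of all tested genes. In 6 of the 10 they lay above and in 3 below, against 31.6% and 31.9% of all tested genes. With 2 libraries per group an exact permutation test of a single value cannot go below p = 0.333, so tests come from the fit across all genes. Without knockout replicate 2 the number of genes that passed across the transcriptome dropped from 3398 to 1441. It was 1894 with the first knockout library left out and 2139 with the first wild-type library left out.

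**Figure D2:**
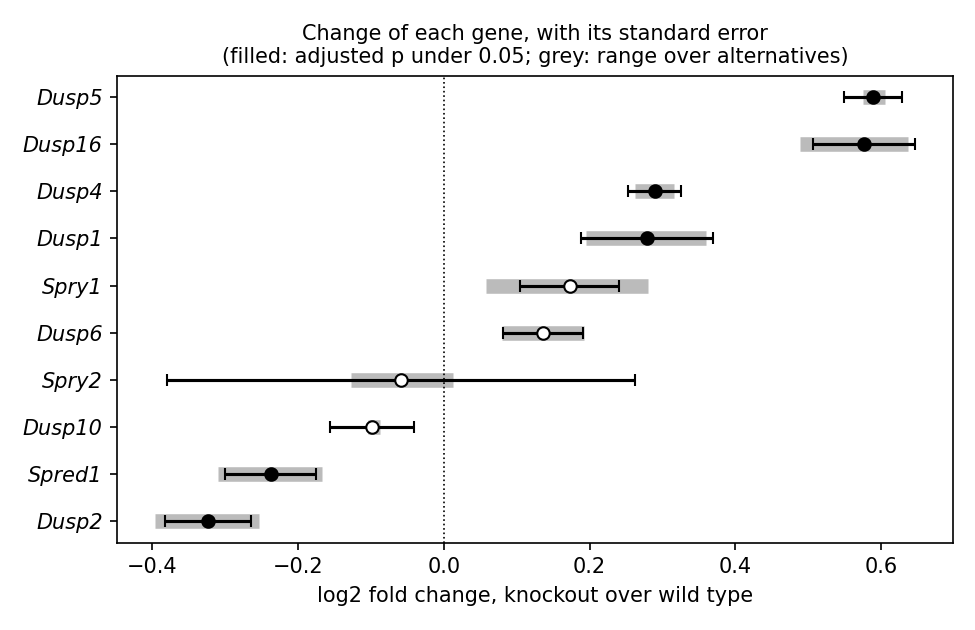
Log2 fold change of each gene, knockout over wild type, with its standard error from edgeR; filled points have an adjusted p under 0.05 and grey bars span the 13 alternative analyses. The changes run from -0.32 for Dusp2 to 0.59 for Dusp5, and only the grey bar of Spry2 crosses 0.

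Dusp5, whose product dephosphorylates ERK in the nucleus and holds it there, rose by about as much as Dusp16; which of them changed more depended on the libraries included. Dusp16 was ahead without knockout replicate 1 (0.64 against 0.58, log2) and without wild type replicate 2 (0.61 against 0.59). Dusp5 levels were 117 and 117 CPM in the wild-type libraries, from 2314 expected counts in each, and 178 and 174 CPM in the knockout libraries. The groups were far apart compared with the spread within them, which was 0.238 CPM (SD) in wild type and 2.61 CPM in the knockout. The rise was 1.5-fold (log2 0.59 ± 0.04, SE, n = 2 per group; edgeR adjusted p = 6.78e-08). Ranked by absolute log2 fold change it stood at place 947 of the 12677 tested genes. The gene lies on chromosome 19 (53529145 to 53541809, GRCm38), and 338 of its coding bases overlap the exons of AC137853.2, a gene annotated on the opposite strand that the tables do not list. As the strand setting is not given in the sources used here, reads from that gene and from Dusp5 could not be told apart.

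The promoter of Dusp5 is shown because, of the 9 promoters searched, only it and that of Dusp1 held a match to a searched motif. Serum response factor is known to bind CArG boxes, and the promoters of immediate early genes that respond to ERK often hold them. The 250 bases before the annotated start (RefSeq, GRCm38.p6, plus strand, chr19:53528895-53529144) are given 5′ to 3′, with the matches to a CArG box in capitals.
Dusp5 promoter: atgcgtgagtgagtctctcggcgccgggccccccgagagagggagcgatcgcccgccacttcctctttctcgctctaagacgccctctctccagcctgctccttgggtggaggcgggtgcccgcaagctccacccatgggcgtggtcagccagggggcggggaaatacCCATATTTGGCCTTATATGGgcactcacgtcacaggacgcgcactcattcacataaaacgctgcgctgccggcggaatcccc
The matches, CCATATTTGG and CCTTATATGG, adjoin each other and begin at positions -82 and -72 from the start. A CArG box occurred on either strand in 1.63% of the 32851 promoter windows of 300 bases in the reference table. At least 2 occurred in only 6 windows (0.0183%), which belong to 5 genes. The Dusp5 match was picked after the search, so these shares do not test it. Dusp5 and Srf were the only 2 of those 5 genes that were tested. Srf, named after its values were seen, encodes serum response factor itself. It had 110 and 105 CPM in wild type and 102 and 94.6 CPM in the knockout, which differ by -0.13 ± 0.05 on the log2 scale. The adjusted p in edgeR was 0.0487, and the gene missed the threshold in 11 of 13 alternatives (adjusted p 0.0152 to 0.35). Of 148 tested genes with a CArG box in a window 18 rose and 20 fell, or 25.7%, against 26.6% of the 10125 tested genes that have a window.

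Dusp4, a nuclear phosphatase of ERK and JNK, had 373 and 387 CPM in wild type and 458 and 469 CPM in the knockout. Both knockout libraries lay above both wild-type libraries. The rise was 1.22-fold (log2 0.29 ± 0.04; edgeR adjusted p = 4.48e-05). In FPKM, Dusp4 was the highest of the 10 genes in every library.

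Dusp1 encodes MKP-1, a nuclear phosphatase that acts mainly on p38 and JNK and is induced quickly by stress. It had 15.4 and 16.1 CPM in wild type and 18.0 and 20.2 CPM in the knockout. The groups did not overlap, with means of 15.8 ± 0.461 and 19.1 ± 1.54 CPM. The rise was 0.28 ± 0.09 on the log2 scale, with an adjusted p of 0.0332 in edgeR, and missed the threshold in 8 of 13 alternatives. The adjusted p was 0.284 in DESeq2. Leaving out a knockout library gave 0.0569 (replicate 1) or 0.258 (replicate 2), and leaving out a wild-type library gave 0.146 (replicate 1) or 0.0661 (replicate 2). Among 8 genes of handling and heat-shock stress Atf3 and Jun rose, by 0.17 ± 0.04 and 0.16 ± 0.04 on the log2 scale. Hsph1 fell by 0.20 ± 0.04 (-0.195), and the other 5 did not pass, where 26.8% of all tested genes passed. The summed level of the 8 was 5156 and 5229 CPM in wild type and 5135 and 5205 CPM in the knockout. The part of handling in the Dusp1 value was not tested.

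The Dusp1 promoter is shown because it also held a match to a searched motif. This gene is known to respond to cyclic AMP as well as to stress. The 250 bases before its start (RefSeq, GRCm38.p6, minus strand, chr17:26508473-26508722) are given 5′ to 3′, with the match to a cyclic AMP response element in capitals.
Dusp1 promoter: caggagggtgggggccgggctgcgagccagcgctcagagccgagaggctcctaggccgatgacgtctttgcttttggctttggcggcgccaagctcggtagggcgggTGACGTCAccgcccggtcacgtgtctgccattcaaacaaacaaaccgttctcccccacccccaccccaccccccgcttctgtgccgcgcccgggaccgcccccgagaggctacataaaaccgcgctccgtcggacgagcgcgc
The element TGACGTCA begins at position -143, and 1.79% of all windows hold it. Of the 10 genes 9 had a window in the reference table and Dusp4 had none. For 8 of the 9 the bases after the start lay near the beginning of an annotated transcript. The Dusp16 window (chr6:134792579-134792878, minus strand) lies inside the gene, which spans 134715468 to 134807063. Its outer start was thus not searched. No other letters searched for were found in the 9 windows: TGANTCA for AP-1, CCGGAAG for ETS factors, TATAAA for the TATA box and an NF-kB motif, each on both strands. These occurred in 7.81%, 8.86%, 13.6% and 0.411% of all windows. The 9 windows held 57.3% to 72.3% G and C and 19 to 40 CpG dinucleotides, above the medians of all windows, 52.7% and 7.

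Dusp2 went the other way. It encodes PAC-1, a nuclear phosphatase first found in activated T cells. The wild-type libraries had 52.2 and 51.5 CPM and the knockout libraries 43.5 and 39.4 CPM. Both knockout values were lower than both wild-type values, and the gene fell, with a log2 fold change of -0.32 ± 0.06 and an adjusted p of 0.000919 in edgeR. The proportions of the nuclear phosphatase genes thus differed between the genotypes. The ratio of Dusp4 to Dusp2 in FPKM was 4.76 and 5.002 in wild type and 7.03 and 7.94 in the knockout. The ratio of Dusp4 to Dusp5 was 1.49 and 1.54 in wild type and 1.21 and 1.26 in the knockout.

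Dusp6, the cytoplasmic phosphatase that is specific for ERK and a common readout of its activity, did not pass the test. It had 54.8 and 52.6 CPM in wild type and 61.3 and 56.7 CPM in the knockout, or 0.14 ± 0.05 on the log2 scale (adjusted p = 0.0799 in edgeR). It was 0.08 when knockout replicate 1 was left out and 0.19 when knockout replicate 2 was, and passed in neither case (adjusted p = 0.406 and 0.0843). The interval of 2 standard errors on either side ran from 0.027 to 0.25. In FPKM, Dusp5 exceeded Dusp6 by 5.30 and 5.53 times in wild type and by 7.20 and 7.62 times in the knockout.

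The remaining phosphatase genes, Dusp10 and Dusp16, encode MKP-5 and MKP-7, which prefer JNK and p38 to ERK. Dusp16 had 25.0 and 26.3 CPM in wild type and 36.6 and 39.9 CPM in the knockout. The knockout libraries were clearly higher, and the rise of 1.49-fold (log2 0.58 ± 0.07; edgeR adjusted p = 2.72e-05) was close in size to that of Dusp5. Dusp10 had 40.6 and 40.5 CPM in wild type and 37.99 and 37.7 CPM in the knockout. Its values did not overlap, but the log2 fold change of -0.10 ± 0.06 did not pass (adjusted p = 0.229 in edgeR), and the interval of 2 standard errors ran from -0.22 to 0.017. The ratio of Dusp16 to Dusp10 in FPKM was 0.326 and 0.342 in wild type and 0.509 and 0.557 in the knockout. Dusp10 was the more abundant of the pair per length in every library, and their summed level was 19.9 ± 0.134 FPKM in wild type and 21.3 ± 0.325 FPKM in the knockout.

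Among the Sprouty and Spred genes, Spred1 fell. Its product brings neurofibromin, which inactivates Ras, to the membrane. It had 44.8 and 44.2 CPM in wild type and 39.6 and 35.9 CPM in the knockout, which did not overlap. The log2 fold change was -0.24 ± 0.06 (edgeR adjusted p = 0.0105). The call was lost in 6 of 13 alternatives, among them DESeq2 (adjusted p = 0.125) and the analyses that left out knockout replicate 2 (0.136) or wild type replicate 1 (0.0646).

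Spry1, an inhibitor of Ras and ERK signalling below growth factor and antigen receptors, had 45.1 and 43.4 CPM in wild type and 53.7 and 46.0 CPM in the knockout. The first knockout library stood apart from the other 3. The log2 fold change of 0.17 ± 0.07 did not pass (edgeR adjusted p = 0.0745). It was 0.28 without knockout replicate 2, which passed (adjusted p = 0.0356), and 0.06 without knockout replicate 1 (adjusted p = 0.58). Spry1 has 4 listed transcripts, and its mean transcript length as weighted in the tables was 2252 and 2219 bases in wild type and 2305 and 2281 bases in the knockout. Its exons, though not its coding sequence, overlap Gm42922, annotated on the opposite strand and not listed in the tables, over 710 bases. Spry2 was near the lower limit of what could be tested, with only 20 and 22 expected counts in wild type against 20 and 19 in the knockout. Its log2 fold change was -0.06 ± 0.32 (edgeR adjusted p = 0.918), with an interval of 2 standard errors from -0.70 to 0.58, so a change as small as those of most other members was not detectable at this depth.

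Summed over the 10 genes, the level was 363 and 368 FPKM in wild type and 453 and 447 FPKM in the knockout, a ratio of 1.23. Dusp4 and Dusp5 made up this difference. Without them the other 8 genes summed to 107 and 106 FPKM in wild type and to 109 and 102 FPKM in the knockout, and these ranges overlap. The share of Dusp5 in the sum went from 28.1% to 34.3%, that of Dusp4 from 42.7% to 42.3%, and that of Dusp2 from 8.76% to 5.67%. By role, the 4 nuclear inducible phosphatase genes had 299 ± 4.04 FPKM in wild type and 380 ± 0.644 FPKM in the knockout. The Sprouty and Spred genes had 27.5 ± 0.375 and 28.2 ± 2.73 FPKM, a difference within the spread of the knockout libraries.

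**Figure D3:**
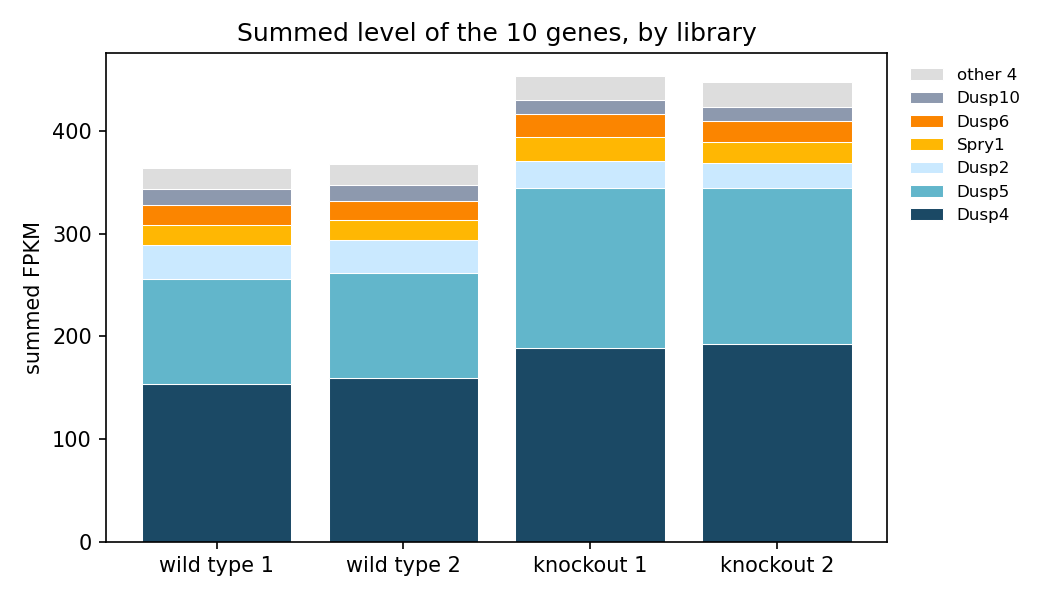
Summed FPKM of the 10 genes in each of the 4 libraries, stacked by gene, with Dusp1, Dusp16, Spred1 and Spry2 drawn together as the other 4. The knockout bars reach 453 and 447 FPKM and the wild-type bars 363 and 368 FPKM, and the added height lies in the Dusp4 and Dusp5 segments.

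Of 19 further phosphatase, Sprouty and Spred genes 18 were listed and 16 could be tested; 1 rose and 2 fell, or 18.8%, against 26.8% of all tested genes. Spred2, a paralogue of Spred1, rose where Spred1 fell. It had 52.4 and 49.2 CPM in wild type and 69.6 and 68.6 CPM in the knockout (log2 0.44 ± 0.05; edgeR adjusted p = 1.96e-05), and it passed in all 13 alternatives. Dusp7, like Dusp6 a cytoplasmic ERK phosphatase, fell by 0.20 on the log2 scale (-0.197 ± 0.06; adjusted p = 0.0159), and Dusp12, an atypical phosphatase, fell by 0.43 (-0.426 ± 0.14; adjusted p = 0.037). The Dusp7 call was lost in 5 of 13 alternatives and the Dusp12 call in 6 of 13. DESeq2 was among them for both (adjusted p = 0.196 and 0.357). The count of 3 dropped when any library was left out, as did the count over all tested genes. Dusp15 and Spry3 had at most 3 counts in a library and were not tested, and Dusp26 was not listed.

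The Ras and ERK cascade, the kinases and regulators on which Sprouty, Spred and most of these phosphatases act, also went both ways. Of 31 genes 7 rose and 5 fell, or 38.7% against 26.8% of all tested genes, with a median log2 fold change of 0.0025. Gab2, an adaptor that recruits the phosphatase SHP2 and PI3 kinase, had 4.04 and 4.15 CPM in wild type and 6.95 and 8.16 CPM in the knockout (log2 0.88 ± 0.15; edgeR adjusted p = 0.00045). Rasal3, a Ras inactivator of T cells, fell from 231 and 220 to 187 and 179 CPM (log2 -0.30 ± 0.04; adjusted p = 9.27e-05). These were the only 2 of the 11 genes chosen by the naming rule whose call held in all 13 alternatives. Mapk3, which encodes ERK1, rose by 0.21 ± 0.04, the MEK1 gene Map2k1 by 0.16 ± 0.04, Nras by 0.15 ± 0.04, and the Ras inactivators Rasa2 and Rasa3 by 0.20 ± 0.05 and 0.14 ± 0.04, and Rras rose as well. Hras fell by 0.22 (-0.217 ± 0.06), the MEK2 gene Map2k2 by 0.18 (-0.178 ± 0.05) and Ptpn11, which encodes SHP2, by 0.14 (-0.136 ± 0.04). The neurofibromin gene Nf1, partner of the Spred proteins, had 0.02 ± 0.06 (adjusted p = 0.805). The count of 12 was lower when any library was left out, as was the count over all tested genes.

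The p38 and JNK cascade, the targets of Dusp1, Dusp10 and Dusp16, held genes that rose and genes that fell too. Of 28 tested genes 7 rose and 5 fell, or 42.9%, where 26.8% of all tested genes passed, and the median was 0.07. Map3k1, an upstream kinase of JNK, rose from 161 and 160 to 202 and 225 CPM (log2 0.41 ± 0.05; edgeR adjusted p = 1.77e-05). Mapk14, which encodes p38 alpha, fell from 114 and 115 to 95.0 and 93.9 CPM (log2 -0.28 ± 0.04; adjusted p = 0.000179). Their calls held in all 13 alternatives, those of the other 9 named genes did not. Map4k3 rose by 0.57 ± 0.12, Gadd45a by 0.40 ± 0.09, Gadd45b by 0.31 ± 0.07, Map3k5 by 0.31 ± 0.08 and Map3k2 by 0.25 ± 0.06 on the log2 scale, and Map2k4 rose as well. The Gadd45 proteins activate the kinase above p38 and JNK. Mapk11, which encodes p38 beta, had -0.27 ± 0.08, the kinase gene Map4k1 -0.19 ± 0.04, the TAK1 gene Map3k7 -0.15 ± 0.04 and its partner Tab2 -0.11 ± 0.04, all of which fell. The JNK genes Mapk8 and Mapk9 had 0.0043 ± 0.06 and 0.03 ± 0.05 and did not pass. With any library left out this count of 12 was lower, and so was the count over all tested genes.

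Transcripts known to respond to ERK are the closest comparison for Dusp4, Dusp5 and Dusp6. All 21 could be tested; 4 rose and 6 fell, or 47.6%, compared with 26.8% over all tested genes (13.6% upward and 13.2% downward), with a median log2 fold change of -0.11. Ier3, an early response gene that acts on ERK and survival signals, rose from 25.9 and 25.3 to 34.5 and 36.7 CPM (log2 0.48 ± 0.07; edgeR adjusted p = 0.000119), Junb rose by 0.18 ± 0.03, Nr4a1 by 0.47 ± 0.08 and Fosb by 0.63 ± 0.19. The cytokine gene Il2 fell from 27.5 and 23.3 to 17.0 and 12.7 CPM (log2 -0.77 ± 0.12; adjusted p = 0.000196). Ccnd1, Etv4, Phlda1, Egr2 and Ier2 also fell, with log2 fold changes of -0.61 ± 0.14, -0.42 ± 0.11, -0.27 ± 0.06, -0.24 ± 0.06 and -0.15 ± 0.04. Calls of Ier3, Junb and Il2 held in all 13 alternatives and those of the other 7 did not. Fewer than 10 were called when any library was left out, and fewer genes were called over all tested genes too.

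The knockout libraries differed from each other in several of these transcripts, as they did for Spry1. Egr1, an immediate early factor, had 104 and 94.5 CPM in wild type and 98.0 and 58.3 CPM in knockout 1 and 2 (log2 -0.35 ± 0.14; edgeR adjusted p = 0.0832). Its value rested on the second knockout library: it was -0.77 and passed with knockout replicate 1 left out (edgeR adjusted p = 0.00217), and -0.021 with knockout replicate 2 left out (0.864). Egr3 had 51.2 and 47.0 CPM in wild type and 57.1 and 40.8 CPM in the knockout. Nr4a1 had 132 and 122 CPM in wild type and 197 and 154 CPM in the knockout, and Egr2 had 270 and 255 CPM against 241 and 203 CPM. In each of these, chosen after their values were seen, knockout replicate 2 was the lower of the pair. Wild-type replicate 2 was the lower of its pair in each of them too, by less. Whether libraries with the same replicate number shared a source of this difference was not tested. Among the 10 genes knockout replicate 2 was the lower for 7 (Dusp2, Dusp5, Dusp6, Dusp10, Spry1, Spry2 and Spred1) and the higher for Dusp1, Dusp4 and Dusp16. Wild-type replicate 2 was the lower in CPM for Dusp2, Dusp6, Dusp10, Spry1 and Spred1 and the higher for the rest.

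**Figure D4:**
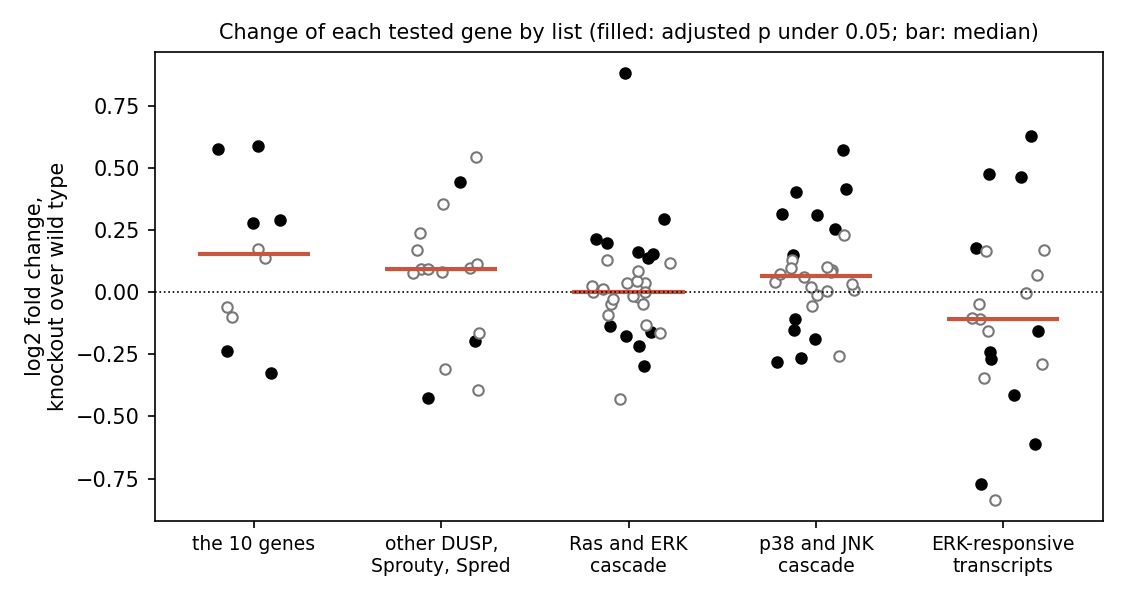
Log2 fold change, knockout over wild type, of every tested gene in the 10 genes described here and in 4 pathway lists; filled points have an edgeR adjusted p under 0.05 and bars are medians. Filled points lie on both sides of 0 in each of the 5 columns, and the medians run from -0.11 for the ERK-responsive transcripts to 0.16 for the 10 genes.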

How the data were processed

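Per the submitters' processing notes, reads were handled with Bowtie and RSEM (versions not given) on GRCm38 (mm10). Per the file headers, the authors deposited for each gene an expected count, which RSEM estimates and which need not be whole, an FPKM value and a transcript length in bases weighted by isoform. Genes at 0 are not listed, and a missing gene was taken as 0. For strand and annotation release, no setting is given in the sources used here. Expected counts were rounded and tested with edgeR 4.0.16 (R 4.3.3): quasi-likelihood test, two-sided, genotype as the factor, all 4 libraries, TMM normalization (factors 0.997 to 1.0022), filterByExpr (minimum count 10, total 15), Benjamini-Hochberg adjustment over 12677 genes at 0.05. The common biological coefficient of variation was 2.9%. Standard errors were derived from F, as the absolute log2 fold change over its square root. CPM uses TMM-scaled library sizes, and 3 counts are 0.152 to 0.157 CPM. The procedure was tested on simulated data, but no result of that is given here, so it does not bear on the values above. Libraries of 1 genotype were not duplicates (chi-square per degree of freedom 2.19 and 2.54).

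The 10 genes and the pathway lists were chosen with earlier results of these data known, and no set test was run. Named from each list were up to 6 genes in each direction by smallest adjusted p; Mapk8, Mapk9, Nf1, Egr1, Egr3 and Srf were added after their values were seen. Some genes of these lists are counted but not reported by name here. Alternatives were DESeq2 1.42.0, DESeq2 or upper-quartile factors in edgeR, limma-voom (limma 3.58.1), no filter, a mean of at least 1 CPM, limma on log2(FPKM + 0.1) and log2(FPKM + 1), the replicate number as a block, and leaving out each library. Shared sequence and overlapping exons were read from GENCODE M21 (GRCm38); coordinates and promoters are from RefSeq (GRCm38.p6), where all 10 genes matched by identifier.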

Additional observations from a re-analysis of the deposited data

How the results depend on the processing

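Dusp5, Dusp16, Dusp4 and Dusp2 kept their direction and their side of the threshold in all 13 alternatives, with log2 fold changes of 0.58 to 0.60, 0.49 to 0.64, 0.26 to 0.32 and -0.40 to -0.25. Dusp10 did not pass in any. Leaving out 1 library gave -0.13 to 0.013 for Spry2, which reversed without wild type replicate 2, and -0.27 to 0.22 for Egr3, which reversed when knockout replicate 2 or wild type replicate 1 (0.06) was left out. Egr3 also reversed, to 0.0079, with upper-quartile factors. Between 4 and 8 of the 10 genes were called over the alternatives that kept all 4 libraries. DESeq2 called 4 of them beside 1569 of 12363 tested genes, and no filter 4 beside 1928 of 17432. The replicate block called 8 beside 3952 of 12677. With DESeq2 the calls were 1569 for all genes, 1 for the further phosphatase, Sprouty and Spred genes, 5 for the p38 and JNK cascade, 5 for the Ras and ERK cascade and 4 for the ERK-responsive transcripts. With no filter they were 1928, 1, 5, 8 and 5. With log2(FPKM + 0.1) they were 7, 7 and 6 for the last 3 lists, and with log2(FPKM + 1) 7 and 7 for both cascades. Leaving out 1 library gave 1441 to 2355 genes in all, and 1 to 2, 3 to 10, 3 to 7 and 4 to 9 in the 4 lists. The summed level had a ratio of 1.23 in FPKM and 1.19 in CPM. The cause of these differences was not tested. The correlation of replicate deviations between genotypes, over all tested genes, was 0.0067. A value over all genes cannot show whether the replicate numbers of the titles mark pairs for some of them. With the replicate block 3952 genes were called, against 3398 without it. Among them were 8 of the 10 genes, with Spry1 (edgeR adjusted p = 0.0235) and Dusp6 (0.0415) added. Egr1 passed with the block too (0.000635). Depth limited Spry2 most.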
